A study of Arabidopsis thaliana with 9 samples.

Results

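CHLM, PORB, GSA1 and LYC encode enzymes of chloroplast pigment synthesis, and their transcripts were followed in cultured cells of Arabidopsis thaliana under 3 light conditions. The members are the probe sets, that is the groups of short array probes directed at one transcript, whose annotation lists exactly 1 gene and whose gene is one of these 4. Each gene had 1 such probe set, so there were 4 members among 22746 probe sets tested, of which 13513 list exactly 1 gene. The loci are AT4G25080 for CHLM, AT4G27440 for PORB, AT5G63570 for GSA1 and AT3G10230 for LYC, and no probe set of the 4 carries the suffix that marks probes shared with other genes.

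Total RNA was hybridised to 9 Affymetrix ATH1 arrays, 3 per group. High light cells were exposed for 30 min to 1800 microE/m2/s, dark cells were kept unlit for 1 h, and control cells stayed at 50 microE/m2/s, the continuous light under which the culture was grown. All groups came from a suspension culture kept at 24 °C and subcultured every 7 days, and cells were treated after the ninth day of growth. The labels give no genotype and call the replicates biological without saying whether they came from separate cultures, so the p-values cover only the spread between these arrays, which may be technical.

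Chlorophyll is built in the plastid from glutamate through 5-aminolevulinate and a chain of porphyrins, into which magnesium is inserted before the ring is finished. Several of its free intermediates absorb light and pass the energy to oxygen, so plants keep their amounts low. Carotenoids are made in the same organelle from isoprenoid units. They serve as light-harvesting pigments and protect chlorophyll-binding proteins by quenching excited states. The genes of both pathways studied here are nuclear.

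All values are log2 signals as deposited, on which a difference of 1 is a doubling, and all 4 genes lay above the median of every array (5.55 to 5.67). High light replicate 1 scored 4.32 on the leading principal component (47.4% of the variance), replicates 2 and 3 scored 41.5 and 45.4, and the dark and control arrays lay between -28.5 and -0.85. The high light replicates are therefore not alike over all transcripts. For the members, log2 changes that rest on one of them are given with and without it. For other named genes no values without an array are given. RNA quality, read as the log2 signal of the 3 prime minus the 5 prime sets of actin, GAPDH and ubiquitin, was 1.00 ± 0.05 in high light, 1.02 ± 0.25 in dark and 0.93 ± 0.19 in control (SD, n = 3). Because a culture was sampled in bulk, fewer green cells and less RNA per cell cannot be told apart. Of 13 listed markers of green cells 2 had a probe set with 1 gene: RCA, the activator of Rubisco, had a mean log2 signal of 10.83 in high light, 10.77 in dark and 11.00 in control, and LHCB4.2, an antenna protein, 6.30, 6.39 and 7.47. LHCB4.2 passed the threshold in high light against control (log2 change -1.17, SE 0.18, limma adjusted p = 0.0309). Its means were lower in high light and dark than in control, as were those of CHLM, PORB and LYC, and its part in their values was not tested. Of 15 listed markers of other cell types 3 were measured, and the guard cell regulator FAMA, the root protein PYK10 and the root hair expansin EXP7 had means of 4.30, 4.60 and 4.39 in high light and 4.22, 4.44 and 4.28 in control, between the lower quartile (4.05 to 4.12) and the median of the arrays.

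CHLM, PORB and LYC were lower on every high light array than on any control array, as were 6.85% of all probe sets. Their high light means were 0.661 to 0.710 of the control level. The dark means lay between, an order of means that 24.5% of all probe sets had. GSA1, which acts at the start of the chlorophyll pathway, had mean log2 signals of 8.53 in high light, 8.55 in dark and 8.39 in control, with overlapping arrays. None of these differences passed the threshold over all probe sets, an adjusted p under 0.05 in limma with Benjamini-Hochberg adjustment. The values of each gene follow in the order of the pathways.

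**Figure D1:**
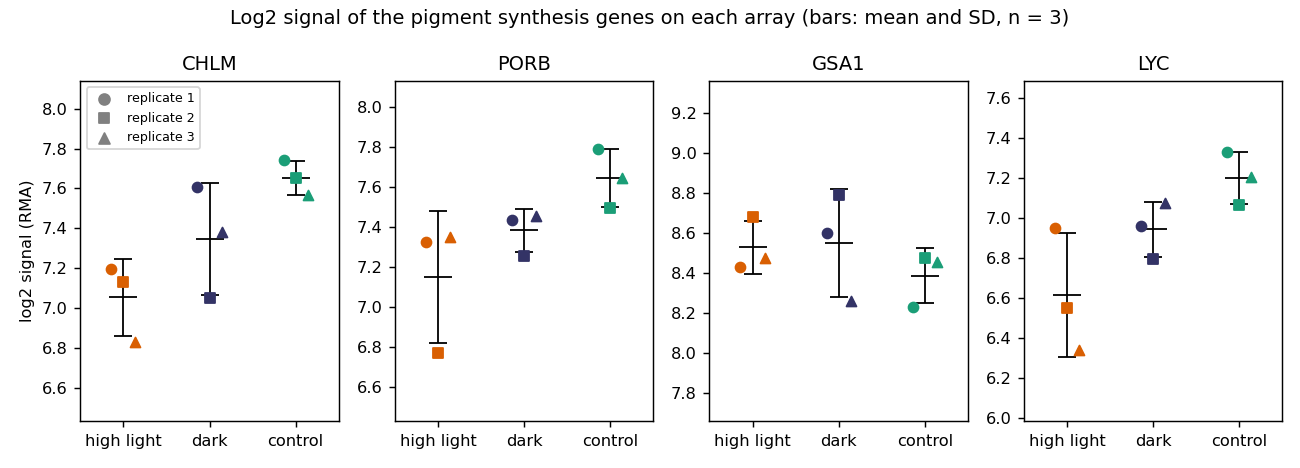
Log2 signal (RMA, y axis) of CHLM, PORB, GSA1 and LYC in high light, dark and control cells. Each point is an array, its shape gives the replicate number, and bars show the mean and SD of 3 arrays; the 4 y axes span the same range. The high light points of CHLM, PORB and LYC lie below all control points, and those of GSA1 overlap them.

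GSA1 encodes glutamate-1-semialdehyde aminotransferase, which makes 5-aminolevulinate, the precursor of all tetrapyrroles. Its log2 signals were 8.43, 8.68 and 8.48 on high light replicates 1, 2 and 3, 8.60, 8.79 and 8.26 on the dark replicates, and 8.23, 8.48 and 8.45 on the control replicates. The 3 groups overlapped, and the highest and the second lowest array were both dark. The log2 change was 0.14 in high light against control (95% confidence interval -0.18 to 0.47, limma adjusted p = 0.878), and 0.06 or 0.07 without control replicate 1 or high light replicate 2. In dark against control it was 0.16 (-0.16 to 0.49, adjusted p = 1), with 0.08 without control replicate 1, 0.04 without dark replicate 2 and 0.31 without dark replicate 3. High light minus dark was -0.02 (-0.35 to 0.30, adjusted p = 0.977), a sign that turned when dark replicate 1 or 2 or high light replicate 1 or 3 was left out. For high light against control the interval reaches down to -0.18 and up to an increase of 1.38-fold.

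CHLM encodes magnesium-protoporphyrin IX methyltransferase, which acts after magnesium has been inserted into the ring. Its log2 signals were 7.20, 7.13 and 6.83 on high light replicates 1, 2 and 3, 7.61, 7.05 and 7.38 on the dark replicates, and 7.74, 7.65 and 7.57 on the control replicates. The high light and control arrays did not overlap, and the dark arrays overlapped both, with dark replicate 2 among the high light arrays. The high light mean was 0.661 of that in control (log2 change -0.60, SE 0.15, 95% confidence interval -0.94 to -0.25), with an unadjusted p of 0.0036 and an adjusted p of 0.203 in limma. Of all probe sets, 1.04% had a log2 change at or below that of CHLM.

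In CHLM the dark arrays were less even than the control arrays (SD 0.28 and 0.09). Dark minus control was -0.31 (SE 0.15, interval -0.65 to 0.04, limma adjusted p = 1), and it was -0.16 without dark replicate 2 and -0.44 without dark replicate 1. High light minus dark was -0.29 (SE 0.15, interval -0.63 to 0.05, adjusted p = 0.715), so the difference between the high light and the dark response was not resolved. It was -0.16 without dark replicate 1, -0.44 without dark replicate 2 and -0.18 without high light replicate 3.

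PORB encodes a protochlorophyllide oxidoreductase, the enzyme whose reaction is itself driven by light and yields chlorophyllide. Its log2 signals were 7.33, 6.77 and 7.35 on high light replicates 1, 2 and 3, 7.44, 7.26 and 7.46 on the dark replicates, and 7.79, 7.50 and 7.65 on the control replicates. All high light and all dark arrays lay below all control arrays, a pattern that 1.31% of probe sets shared. High light minus control was -0.49 (SE 0.16, interval -0.86 to -0.13, unadjusted p = 0.0135, limma adjusted p = 0.37). High light replicate 2 was the lowest of all arrays, and without it the log2 change was -0.30 (adjusted p = 0.755).

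Dark minus control was -0.26 for PORB (SE 0.16, interval -0.62 to 0.10, limma adjusted p = 1). High light minus dark was -0.23 (SE 0.16, interval -0.60 to 0.13, adjusted p = 0.8), and -0.04 without high light replicate 2. The homologues PORA and PORC, and GSA2, the second glutamate-1-semialdehyde aminotransferase gene, have no probe set that lists them alone and were not analysed here.

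LYC encodes lycopene beta-cyclase, which closes the rings of lycopene on the way to beta-carotene. Its log2 signals were 6.95, 6.55 and 6.34 on high light replicates 1, 2 and 3, 6.96, 6.80 and 7.07 on the dark replicates, and 7.33, 7.07 and 7.20 on the control replicates. High light replicates 2 and 3 were the lowest arrays, high light replicate 1 lay within the range of the dark arrays, and high light did not overlap control. High light minus control was -0.59 (SE 0.15, interval -0.94 to -0.23), a ratio of 0.666, with an unadjusted p of 0.00476 and a limma adjusted p of 0.234.

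The call of LYC turned on high light replicate 1. Without that array the log2 change was -0.75 (limma adjusted p = 0.0222), and LYC was then called lower, as 0.791% of all probe sets were. CHLM and PORB were not called without it (log2 changes -0.67 and -0.58, adjusted p = 0.103 and 0.162). With high light replicate 2 or 3 left out instead, LYC had log2 changes of -0.55 and -0.45 (adjusted p = 0.685 and 0.699). What sets high light replicate 1 apart was not tested. In the dark LYC had a log2 change of -0.26 (SE 0.15, interval -0.61 to 0.10, adjusted p = 1), and dark replicate 3 and control replicate 2 both had 7.07 after rounding, so these groups overlapped narrowly. High light minus dark was -0.33 (SE 0.15, interval -0.68 to 0.02, adjusted p = 0.674), and it was -0.50 without high light replicate 1 (adjusted p = 0.0872) and -0.19 without high light replicate 3.

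**Figure D2:**
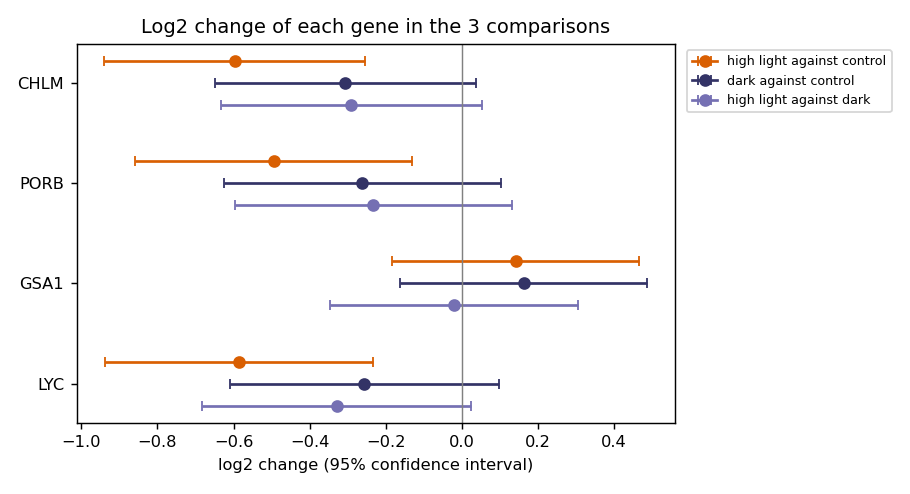
Log2 change of each gene with its 95% confidence interval from limma (x axis) in high light against control, dark against control and high light against dark, from fits to 9 arrays. The intervals of CHLM, PORB and LYC in high light against control lie below 0, and all other intervals include 0.

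In total, 0 of 4 members passed the threshold in high light against control, where 0.501% of all probe sets passed (1.33% with the replicate number as a block, under which 0 of 4 members passed too), in dark against control, where 0% passed, and in high light against dark, where 0.897% passed. At an unadjusted p under 0.05, 3 of 4 were lower in high light than in control, against 4.92% of all probe sets, 0 of 4 in dark against control, against 1.77%, and 0 of 4 in high light against dark, against 3.52%. The arrays did not overlap for 3 of 4 in high light against control, against 6.85% of all probe sets in that direction, and for 1 of 4 in dark against control, against 3.45%. The members were chosen with earlier results of these data known, those for CHLM and PORB among them. These shares therefore describe the members and do not test them as a group.

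High light and dark together, set against control, gave log2 changes of -0.45 for CHLM (SE 0.13, limma adjusted p = 0.701) and -0.42 for LYC (SE 0.13, adjusted p = 0.798). PORB had -0.38 (SE 0.14, adjusted p = 0.917), and -0.28 without high light replicate 2. GSA1 had 0.15 (SE 0.12, adjusted p = 1), with 0.07 without control replicate 1 and 0.09 without dark replicate 2. Of all probe sets 0.0528% passed in this comparison, and 0 of 4 members did, while 3 of 4 were lower at an unadjusted p under 0.05, against 3.02% of all probe sets. The moderated F test over the 3 groups gave adjusted p = 0.386 for CHLM, 0.44 for LYC, 0.637 for PORB and 0.968 for GSA1, where 0.633% of probe sets passed; the unadjusted p of CHLM, LYC and PORB was 0.0114, 0.0147 and 0.0399. The order high light, dark, control from low to high, which CHLM, PORB and LYC had, was that of 24.5% of all probe sets. High light lasted 30 min and darkness 1 h, so light level and duration cannot be told apart between these groups.

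For single genes, without adjustment over all probe sets, an exact permutation test of the F statistic over all 1680 groupings of the 9 arrays gave p = 0.025 for PORB, 0.0429 for LYC, 0.0536 for CHLM and 0.557 for GSA1. The smallest p this test can give is 0.00357, and 4 genes were tested with no adjustment. The light condition held 68.4% of the variance of CHLM, 66.2% of that of LYC and 56.5% of that of PORB over the 9 arrays, but 17.7% of that of GSA1. For GSA1 the replicate number held more, 44.1%, and the replicate 2 array was the highest of its group in each condition. In control that lead was narrow, with 8.48 on replicate 2 and 8.45 on replicate 3. The replicate number held 33.1% of the variance of PORB, whose replicate 2 array was the lowest of its group in each condition. Any grouping of 9 arrays holds some of the variance, and the shares of the replicate number were not tested.

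Replicate 2 was thus the high end for GSA1 and the low end for PORB. Over the 9 arrays their correlation was -0.669 (Pearson) and -0.695 (Spearman), and it was -0.686 once the group means had been taken out. CHLM and LYC had a Pearson correlation of 0.883, a Spearman correlation of 0.85, and a Pearson correlation of 0.65 within groups. The same measures were 0.742, 0.883 and 0.349 for PORB and LYC, and 0.645, 0.8 and 0.0649 for CHLM and PORB. Which of the pairs went together most closely thus depends on the measure. The arrays share their groups and their normalisation, so these correlations are descriptions of 9 arrays.

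**Figure D3:**
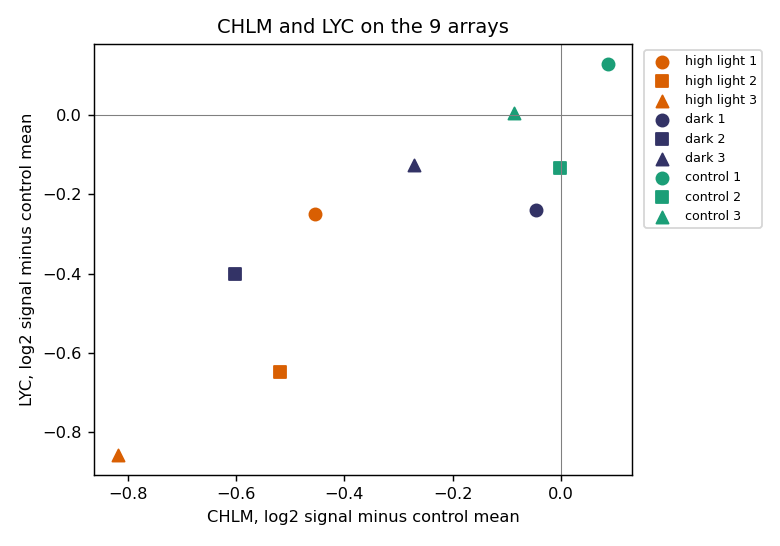
LYC against CHLM on the 9 arrays, both as log2 signal minus the mean of the control arrays, with colours for high light, dark and control and shapes for the replicate number. High light replicate 3 is lowest on both axes, at -0.82 for CHLM and -0.86 for LYC, and dark replicate 2 lies among the high light arrays for CHLM.

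The responses of the members were also compared with each other, in 6 pairs. In high light against control the change of CHLM minus that of GSA1 was -0.74, that of PORB minus GSA1 -0.64, and that of GSA1 minus LYC 0.73, each with an exact two-sided permutation p of 0.1, the smallest that 3 against 3 arrays allow. The changes of CHLM, PORB and LYC differed from each other by at most 0.10 (exact p = 0.7 to 1). In dark against control the differences from GSA1 were -0.47 for CHLM and -0.42 for PORB, and GSA1 minus LYC was 0.42 (exact p = 0.2, 0.3 and 0.3). With 3 arrays a group this test cannot pass 0.05, and it shows neither that GSA1 differs from the others nor that the others act alike.

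The pathway around the members was read from lists of known genes. Of 31 genes of chlorophyll synthesis 12 had a probe set with 1 gene, and limma called 0 higher or lower in any comparison. In high light against control 9 of 12 had a log2 change below 0, with a median of -0.16 against -0.03 for all probe sets, and 60.7% of all probe sets lay below 0. Among those below 0, HEMA3 had mean signals of 3.91 in high light and 3.96 in control, below the lower quartile of every array. HEMB2 had 4.16 in both groups, near that quartile. At an unadjusted p under 0.05, 4 of 12 were lower and 1 higher, against 4.92% and 3.87% of all probe sets. The 4 lower genes include the members CHLM and PORB. Without the members the median of the other 9 was -0.09. In dark against control the median of the 12 was -0.06, against -0.0040 for all probe sets. At an unadjusted p under 0.05, 0 were lower and 0 higher there, against 1.77% and 0.994% of all probe sets.

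CHLM, HEME2 and PORB had the lowest values of the chlorophyll list in high light against control, and HEMA2, GSA1 and HEMB1 the highest. HEME2, a uroporphyrinogen decarboxylase gene, had a log2 change of -0.51 with an SE of 0.31 (limma adjusted p = 0.745). HEMB1, which encodes 5-aminolevulinate dehydratase, the step after GSA1, had a log2 change of 0.01 (SE 0.10, adjusted p = 0.987).

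HEMA2 went the other way. It encodes a glutamyl-tRNA reductase, the enzyme just before GSA1, in a form known from non-green tissues. Its log2 signals were 7.33, 8.11 and 7.74 on high light replicates 1, 2 and 3, 7.12, 6.86 and 6.74 on the dark replicates, and 6.92, 7.39 and 7.17 on the control replicates. All high light arrays lay above all dark arrays, and high light replicate 1 lay below the highest control array. High light minus dark was 0.82 (SE 0.20, interval 0.36 to 1.28, limma adjusted p = 0.17), high light minus control 0.57 (SE 0.20, adjusted p = 0.44) and dark minus control -0.25 (SE 0.20, adjusted p = 1).

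Of 18 listed genes of carotenoid synthesis 4 were measured, and limma called 0 in any comparison. In high light against control all 4 were below 0, against 60.7% of all probe sets, with a median of -0.41 against -0.03. LYC, a member, is among the 4, and without it the median of the other 3 was -0.34. At an unadjusted p under 0.05, 2 of the 4 were lower, against 4.92% of all probe sets. One was LYC and the other AT5G61670, which encodes the ORANGE protein that stabilises phytoene synthase. Its log2 signals were 8.62, 8.40 and 8.18 on high light replicates 1, 2 and 3, 8.86, 8.67 and 8.54 on the dark replicates, and 8.88, 8.79 and 8.97 on the control replicates. High light did not overlap control, and the log2 change was -0.48 (SE 0.13, limma adjusted p = 0.246). AT5G06130, a gene for an ORANGE-like protein, had -0.34 (SE 0.19, adjusted p = 0.692) and Z-ISO, the isomerase of zeta-carotene, -0.14 (SE 0.18, adjusted p = 0.905). In dark against control the 4 genes had a median of -0.15, against -0.0040 for all probe sets. At an unadjusted p under 0.05, 0 were lower and 0 higher there, against 1.77% and 0.994% of all probe sets.

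**Figure D4:**
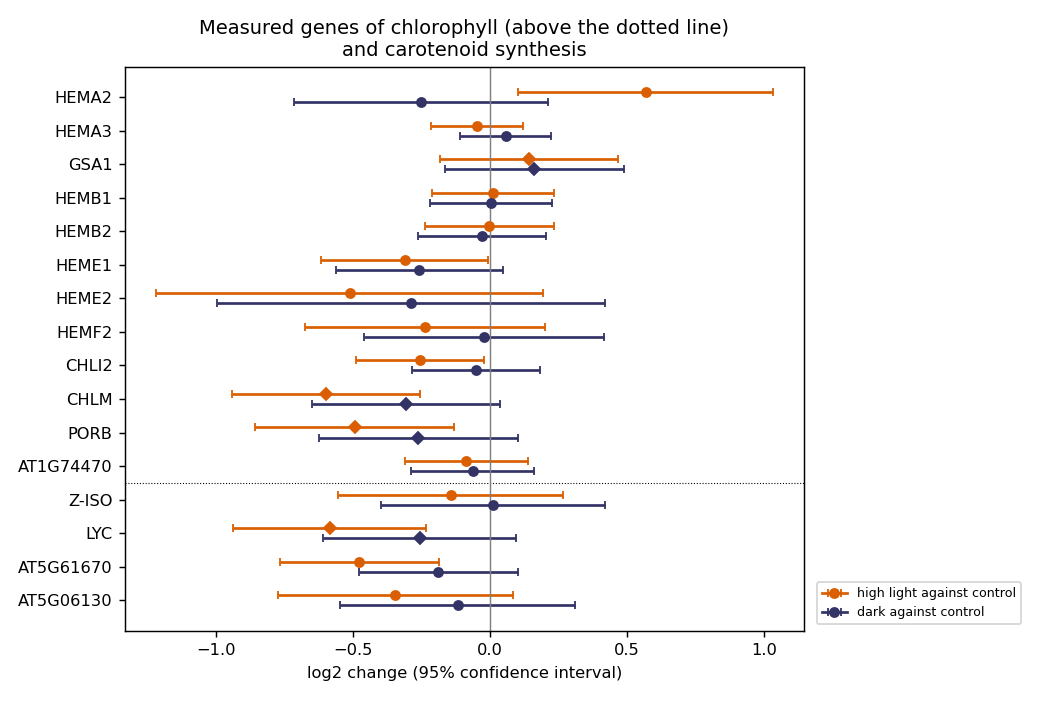
Log2 change (x axis, with 95% confidence intervals from limma) of the 12 measured genes of chlorophyll synthesis in pathway order and, below the dotted line, the 4 of carotenoid synthesis, in high light against control and dark against control. Diamonds mark CHLM, PORB, GSA1 and LYC; HEMA2 has the highest value in high light (0.57) and CHLM the lowest (-0.60).

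Other lists were thinly covered. Chlorophyll breakdown had 1 of 10 genes measured, NOL, a chlorophyll b reductase gene, with a log2 change of -0.12 (SE 0.15, limma adjusted p = 0.905) in high light against control. Among 12 regulators of pigment genes 1 was measured, the bZIP factor HYH, with 0.10 (SE 0.08, adjusted p = 0.818) and a mean signal of 3.88 in high light and 3.78 in control, below the lower quartile of every array. The lists of the heme branch, carotenoid cleavage and isoprenoid precursors had 0 genes with a probe set that lists them alone. Only such genes count as measured here, and 8730 of the 22746 probe sets are unnamed in the annotation.

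The genes with the pattern most like each member were sought among the 13512 other probe sets with 1 gene, by the Pearson correlation over the 9 arrays. For CHLM they were AT1G27210 (0.944), AT1G14200 (0.933) and PSB27 (0.929), which encodes a photosystem II assembly factor. For LYC they were AT1G72030 (0.961), AT1G54520 (0.956) and AT5G24890 (0.956). For PORB they were AT2G06470 (0.949), AT2G07693 (0.946) and AT2G34620 (0.945), and for GSA1 AT1G63190 (0.896), AT2G40800 (0.89) and AT1G65920 (0.887). With the Spearman correlation 0 of these 3 nearest genes were shared for CHLM and 1 of 3 for each of the others, so the order of the nearest genes is not firm over 9 arrays. AT2G07693 and AT1G63190 had mean signals of 3.81 and 3.87, below the lower quartile of every array. AT2G34620 and AT1G65920 had 4.43 and 4.50, not far above it.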

How the data were processed

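The deposited table holds 1 value per probe set and array. Per the submitters' processing notes, the authors used RMA in the affy package, with no version or settings given. RMA corrects the background, normalises quantiles between arrays and summarises the probes. The deposited values were taken as log2, a base not given in the sources used here, from their range and nearly equal quartiles. Quantile normalisation would hide a shift of most transcripts in 1 direction. Signal above background was not tested, since probe-level data were not used here, and precision is limited by how few arrays there are.

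The 64 Affymetrix control sets were left out, and 22746 probe sets were fitted with limma 3.58.1 in R 4.3.3 (a mean per group, eBayes, 6 residual and 2.55 prior degrees of freedom), with Benjamini-Hochberg adjustment within each comparison. The scripts were tested on simulated data. The platform annotation given with the data pairs 13513 probe sets with 1 gene and 503 with several, and 8730 stay unnamed. Of the 13513, 13436 were found in the RefSeq gene table by gene identifier. Listed genes are represented by their probe set of highest mean, and the lists hold 129 loci. Of these, 23 were measured, that is, had a probe set that lists 1 gene.

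The rule for named genes takes the members, all measured genes of a list with 6 or fewer (otherwise the 3 highest and 3 lowest), and the 3 nearest patterns of each member. The members and lists were chosen with earlier results of these data known. Same-numbered arrays deviated together in all 3 pairs of high light and control (correlations 0.261 to 0.515), in dark and control from 0.0124 to 0.632, and in high light and dark from -0.0336 to 0.485. Alternatives covered scaling, filters, the variance prior, array weights, the replicate block, RNA quality and left-out arrays.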

Additional observations from a re-analysis of the deposited data

How the results depend on the processing

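Of 372 alternative values of the members, 366 kept the direction and the side of the threshold of an adjusted p under 0.05. The exceptions were LYC without high light replicate 1, and GSA1 in high light against dark, whose sign turned in 4 left-out settings. With each array left out in turn, LYC ranged from -0.75 to -0.45 in high light against control, and its F statistic over the 3 groups from 4.58 to 19.2, which passed (adjusted p = 0.0463) without high light replicate 1. GSA1 in high light against dark ranged from -0.17 to 0.10 in these settings. The main values do not rest on a passed test, so an unchanged side of the threshold says little about stability. The count says little about direction too. The filters, the variance prior, the replicate block and arrays left out of a group outside the comparison cannot move a log2 change. The F statistic has no direction.

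A block for the replicate number pairs the high light and control arrays by number, a pairing that the labels do not state. With every number present in every group, it cannot move the log2 changes. In high light against control limma with the block gave adjusted p = 0.0772 for PORB, 0.0812 for CHLM, 0.0973 for LYC and 0.665 for GSA1. Not all same-numbered arrays deviated together in the other comparisons. There the block gave CHLM and PORB unadjusted p = 0.0415 and 0.0349 for dark minus control (lower at p under 0.05 for 3.33% of all probe sets) and LYC 0.0375 for high light minus dark (lower for 7.68%). It changed no call of a member at the adjusted threshold, while the calls over all probe sets went to 302 with the block, against 114 without it. Array weights gave 387 calls, and leaving out high light replicate 1 gave 575, against 43 without high light replicate 2. With the RNA quality covariate CHLM, PORB and LYC had log2 changes of -0.57, -0.49 and -0.58. A rank statistic in the exact test gave p = 0.0857 for CHLM, 0.025 for PORB, 0.0286 for LYC and 0.539 for GSA1. The lists had the same medians with all probe sets of a gene, a check that cannot differ where a gene has 1 probe set, as each member has.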
